A study of Mus musculus with 6 samples.

Results

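The ERK feedback and output genes are transcripts through which a cell registers and restrains signalling by the kinase ERK. They were taken as a fixed list of 10 mouse genes, found by symbol: Dusp4, Dusp6, Spry1, Spry2, Spry4, Spred1, Spred2, Etv1, Etv4 and Etv5. All 10 have a row among the 18908 genes of the table, and all 10 passed the filter on low counts, as did 14641 genes in all. The libraries were 3 labelled with an shRNA against VprBP (genotype given as VprBP1 knockdown) and 3 labelled with a control shRNA (genotype given as wild type). An shRNA is a hairpin-shaped RNA used to deplete a matching transcript. VprBP is an alias of Dcaf1, which picks substrates for a ubiquitin ligase. The labels give every library as mouse bone marrow-derived macrophages, with no statement of animals, cultures, age or strain. Replicate spread may therefore be purely technical, and p-values refer to that spread.

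ERK is the last kinase of a cascade in which RAS at the membrane activates RAF, RAF activates MEK and MEK activates ERK. Active ERK raises the transcripts of its own inhibitors. Among these, the DUSP phosphatases remove phosphate from ERK, and the Sprouty and SPRED proteins act on RAS and RAF. It also raises Etv1, Etv4 and Etv5, the PEA3 group of ETS transcription factors, in part by relieving repression by capicua, a DNA-binding repressor. Such transcripts are widely read as a gauge of ERK output in melanoma, and in macrophages the cascade acts downstream of the receptor for colony-stimulating factor 1.

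Promoters were searched for motifs because capicua is known to bind a short octamer near several of the genes. Sequence is shown for 3 of the genes, only where a searched motif matched. RefSeq windows of 250 bases before and 50 after a start site (build GRCm38.p6) were at hand for 7 of the 10 genes, in 9 windows, and none for Dusp4, Spry4 and Etv4. The octamers TGAATGAA and TCAATGAA, searched on both strands, stood in 1 of the 9 windows, that of Spry2, and in 2.03% of all 32851 windows. With TGAATGGA and TCAATGGA added, a choice made after the sequences were seen, the Dusp6 window matched as well, against 3.84% of all windows. The letters TGAATG alone, also chosen afterwards and contained in 2 of these octamers, stood in the Dusp6 window and 3 times in the second Etv5 window. They occur in 12.7% of all windows, and 3 or more times in 0.170% of them. The cut of 3 is the count in that Etv5 window, so the smaller share does not measure how unusual the window is. The ETS core CCGGAA, held by 14.9% of windows, stood among the 9 only in the Spry2 window, after its start. The AP-1 site TGANTCA (7.81% of windows) and the SRF box (1.63%) stood in none of the 9. A match describes letters and is no evidence of binding.

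The 250 bases before the start are printed 5′ to 3′ with matches in capitals, and a match on the other strand reads as its reverse complement. In Dusp6 (chr10:99262981-99263230, plus strand) 1 octamer match begins 24 bases before the start, another lies after the start and is not printed, and TGAATG begins 133 bases before it. In Spry2 (chr14:105896820-105897069, minus strand) the octamer match begins 54 bases before the start. In Etv5 (chr16:22438369-22438618, minus strand, upstream of the second start) TGAATG begins 242, 198 and 129 bases before the start. That window lies within the annotated span of the gene.
Dusp6: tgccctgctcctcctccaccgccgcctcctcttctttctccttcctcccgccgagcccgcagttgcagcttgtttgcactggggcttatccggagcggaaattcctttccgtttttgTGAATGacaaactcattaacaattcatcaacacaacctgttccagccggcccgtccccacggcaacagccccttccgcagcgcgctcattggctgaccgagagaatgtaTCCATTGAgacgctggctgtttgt
Spry2: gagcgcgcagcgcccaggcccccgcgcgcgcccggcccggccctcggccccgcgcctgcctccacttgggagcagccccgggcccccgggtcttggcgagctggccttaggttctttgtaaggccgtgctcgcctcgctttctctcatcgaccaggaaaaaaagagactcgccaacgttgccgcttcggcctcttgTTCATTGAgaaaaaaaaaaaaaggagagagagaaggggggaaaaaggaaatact
Etv5: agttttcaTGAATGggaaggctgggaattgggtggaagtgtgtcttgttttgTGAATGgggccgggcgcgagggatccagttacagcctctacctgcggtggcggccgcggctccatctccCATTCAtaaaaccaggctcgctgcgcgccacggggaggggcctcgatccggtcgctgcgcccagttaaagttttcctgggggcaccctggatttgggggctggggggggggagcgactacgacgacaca

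Several facts of the whole set bear on each result below. Total counts were 17825340 to 18407356 in VprBP-labelled and 16839445 to 21838875 in control-labelled libraries. Dcaf1, the targeted gene, stood at 36.0, 34.6 and 36.8 CPM (counts scaled by each library's TMM-adjusted total) in VprBP-labelled libraries, against 42.2, 43.5 and 40.7 CPM in control-labelled ones. It was lower by 0.24 on the log2 scale (SE 0.07, edgeR adjusted p = 0.00625), and by 0.12 with scaling by library size only (adjusted p = 0.137). Among all tested genes, 81.0% differed by more than Dcaf1 in either direction. An exact permutation test of its log2 CPM gave p = 0.1, the lowest value possible with 3 libraries on each side. Of 14 macrophage markers only 5 have a row, and Csf1r, Adgre1, Itgam and Spi1 are not among them. Those 5 summed to 7.02 to 7.66 CPM in VprBP-labelled and 32.7 to 35.2 CPM in control-labelled libraries. The lower sum is Cd68 (1.0 ± 0.27 and 31.6 ± 1.2 CPM, SD, n = 3 each), a lysosomal protein, whereas Laptm5 (3.03 ± 0.566 and 0.241 ± 0.0563 CPM) and Lyz2 (2.51 ± 0.304 and 1.05 ± 0.212 CPM) were higher. All 10 pigment cell markers have a row, and they summed to 26140 to 26333 and 32382 to 32625 CPM. They did not move as one, since 5 rose and 5 fell, with Tyr 3.79-fold and Sox10 3.51-fold higher and Pmel 2.78-fold lower. The cells thus carry pigment cell rather than macrophage transcripts, which goes against the label, and the groups are named by their labels only. Schwann cell markers, all 7 with a row and Sox10 again among them, summed to 1503 to 1622 CPM in VprBP-labelled and 185 to 200 CPM in control-labelled libraries. Stromal markers, 6 of 8 with a row, summed to 366 to 419 and 47.3 to 50.3 CPM. Most of the VprBP-labelled stromal sum is Col1a1 (302 ± 28.1 and 14.9 ± 1.07 CPM). Pdgfra, Pdgfrb and Col3a1 were higher too, whereas Dcn was lower (1.26 ± 0.365 and 2.70 ± 0.297 CPM). The share of counts from the mitochondrial genome was 4.89% to 5.56% and 8.65% to 9.48%. These quantities move with the labels, and their part in the results was not tested. In bulk RNA, a change in the number of cells of a type and a change in RNA per cell cannot be told apart.

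The 10 genes did not move as a block. Of the 10, 5 rose (Dusp6, Spry1, Spred1, Etv1 and Etv5), 3 fell (Dusp4, Spry4 and Spred2), and 2 were not called (Spry2 and Etv4) in VprBP-labelled libraries. A gene was called at an adjusted p below 0.05 from edgeR's quasi-likelihood test, adjusted over all tested genes. By that rule 75.0% of all tested genes were called, 37.9% higher and 37.0% lower, so 8 calls of 10 are close to the background. The VprBP-labelled and control-labelled libraries did not overlap for the same 8 genes, and for 77.2% of all tested genes. The median log2 difference was 1.02 over the 10 genes and -0.01 over all tested genes. That median lies between Spred1 (0.90) and Etv4 (1.13), so it rests in part on a gene that was not called. Sprouty, SPRED and DUSP genes each had members that rose and members that fell.

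**Figure D1:**
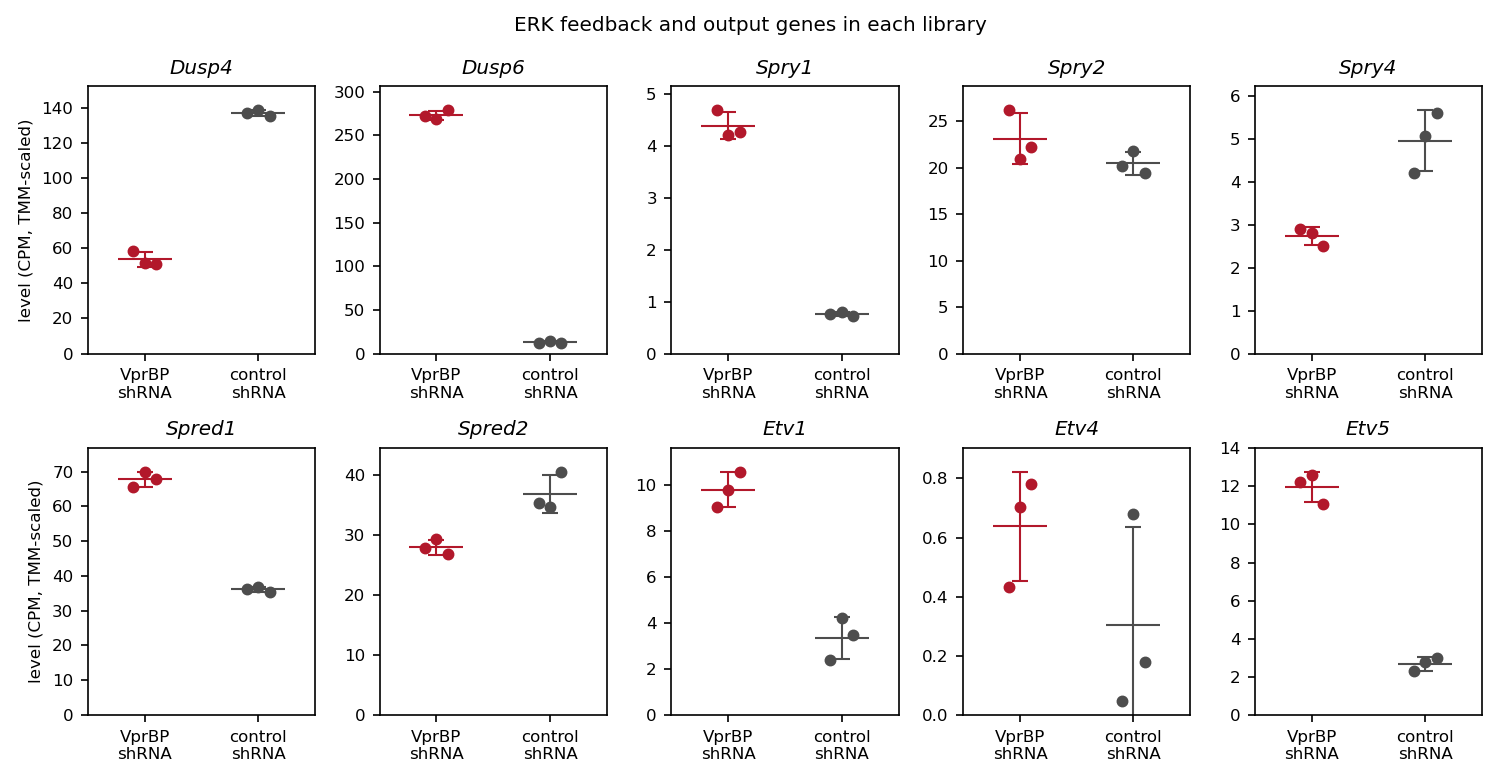
Level of each of the 10 genes in TMM-scaled CPM (linear axis from 0) in the 3 VprBP-labelled libraries (red) and the 3 control-labelled libraries (grey). Points are libraries, long ticks are means and bars are 1 SD (the lower bar of Etv4 in control-labelled libraries runs below 0). The groups are separate for 8 genes and overlap for Spry2 and Etv4.

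The phosphatases gave the widest contrast. Dusp6 encodes a cytoplasmic phosphatase with high selectivity for ERK (ENSMUSG00000019960.8; GRCm38 chromosome 10, 99263231 to 99267489, plus strand). It stood at 272, 269 and 279 CPM in VprBP-labelled libraries, against 12, 14.1 and 12.2 CPM in control-labelled ones. Every VprBP-labelled library lay far above every control-labelled library, and the spread within each group was small. Means were 273 ± 5.16 CPM in VprBP-labelled and 12.8 ± 1.19 CPM in control-labelled libraries (SD, n = 3 each). On the log2 scale the difference was 4.42 (SE 0.07, edgeR adjusted p = 2.55e-19), a 21.5-fold rise with a 95% interval of 19.5-fold to 23.6-fold. Among all tested genes, 2.16% differed by more in either direction.

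Dusp4 encodes a nuclear phosphatase that acts on ERK and also on the stress kinases JNK and p38 (ENSMUSG00000031530.6; chromosome 8, 34807297 to 34819894, plus strand). It stood at 58.7, 51.5 and 51.1 CPM in VprBP-labelled libraries, against 137, 139 and 136 CPM in control-labelled ones. The groups did not overlap and the direction was opposite to that of Dusp6. Means were 53.8 ± 4.25 CPM in VprBP-labelled and 137 ± 1.66 CPM in control-labelled libraries (SD, n = 3 each). On the log2 scale the difference was -1.35 (SE 0.06, edgeR adjusted p = 5.4e-13), 2.55-fold lower.

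A ratio of counts within a library does not depend on how libraries are scaled. The ratio of Dusp6 to Dusp4 was 4.63, 5.21 and 5.45 in VprBP-labelled libraries, against 0.0871, 0.102 and 0.0899 in control-labelled ones. Dusp6 counts thus exceeded Dusp4 counts in each VprBP-labelled library, and Dusp4 counts exceeded Dusp6 counts in each control-labelled library. The geometric mean of the ratio was 54.9-fold higher in VprBP-labelled libraries. A two-sided exact permutation test gave p = 0.1, which is the lowest value possible with 3 libraries on each side. The same p was found for each of 8 ratios computed between the genes (Benjamini-Hochberg adjusted p = 0.1).

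Compared between genes, levels are given per kilobase of annotated exon. On that scale Dusp6 stood at 87.2 ± 1.65 CPM per kilobase in VprBP-labelled and 4.07 ± 0.380 in control-labelled libraries, and Dusp4 at 19.6 ± 1.55 and 50.1 ± 0.605 (SD, n = 3 each). Dusp6 made up 60.9%, 62.5% and 63.6% of the 10 genes' summed level in VprBP-labelled libraries, against 4.86%, 5.56% and 4.91% in control-labelled ones. Dusp4 made up 15.0%, 13.7% and 13.3%, against 63.8%, 62.4% and 62.5%. The leading transcript of the set was therefore a different phosphatase under each label. Next in order in VprBP-labelled libraries came Spry2 at 10.04 to 12.6 and Spred1 at 9.67 to 10.3 CPM per kilobase, which overlapped, then Spred2 at 5.80 to 6.35. In control-labelled libraries Spry2 at 9.33 to 10.5 came next, then Spred2 at 7.51 to 8.78, Spred1 at 5.23 to 5.43 and Dusp6, with no overlap between neighbours. Etv5, Spry1, Spry4, Etv1 and Etv4 each stayed below 3.1 CPM per kilobase in every library.

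**Figure D2:**
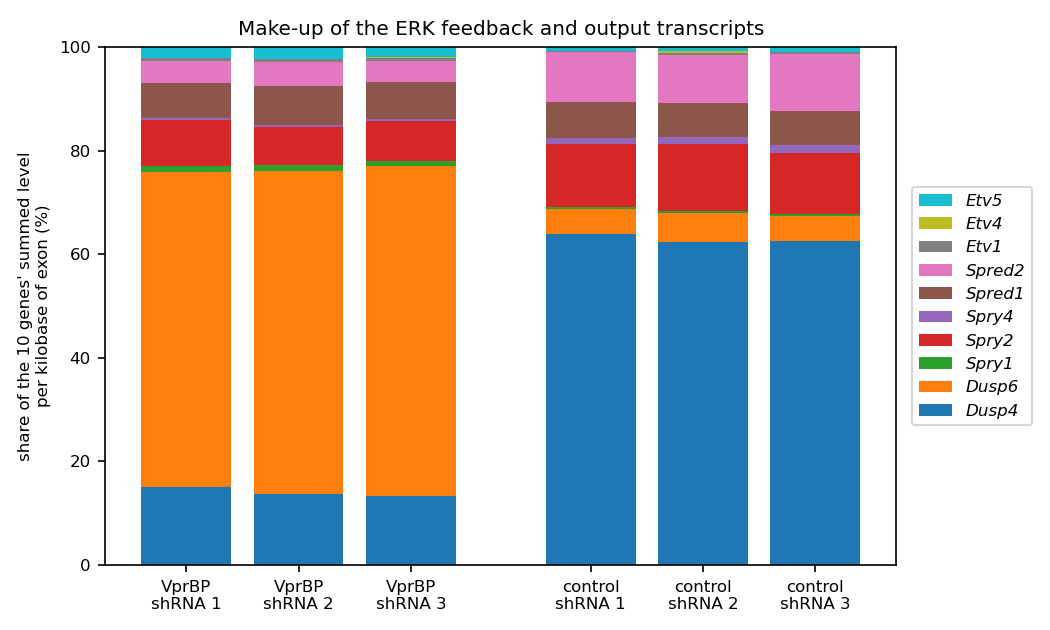
Share of each gene in the summed level of the 10 genes, per kilobase of annotated exon, in each of the 6 libraries (bars, in percent). Dusp6 takes 60.9% to 63.6% of the VprBP-labelled bars, and Dusp4 takes 62.4% to 63.8% of the control-labelled bars.

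Transcripts of the Sprouty proteins, which restrain signalling from growth factor receptors to RAS and RAF, went 3 ways. Spry1 (ENSMUSG00000037211.12; chromosome 3, 37639947 to 37644598, plus strand) stood at 4.69, 4.21 and 4.28 CPM in VprBP-labelled libraries, against 0.766, 0.805 and 0.716 CPM in control-labelled ones. The groups were well apart, although the control-labelled level rests on 40.7 estimated counts over 3 libraries. Its log2 difference was 2.52 (SE 0.31, edgeR adjusted p = 7.48e-07), 5.72-fold higher with a 95% interval of 3.65-fold to 8.96-fold. A transcript of unclear coding status on the other strand, Gm42922, shares 710 exonic bases with Spry1. It held at most 0.310 CPM in any library, below every Spry1 value.

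Spry4 (ENSMUSG00000024427.7) stood at 2.91, 2.81 and 2.5 CPM in VprBP-labelled libraries, against 4.21, 5.08 and 5.61 CPM in control-labelled ones. It fell by 0.85 on the log2 scale (SE 0.24, edgeR adjusted p = 0.00337), 1.81-fold lower, with no overlap between groups. Spry2 (ENSMUSG00000022114.5; chromosome 14, 105891947 to 105896819, minus strand), the Sprouty gene with the highest level per kilobase, stood at 26.2, 21.0 and 22.3 CPM in VprBP-labelled libraries and 20.2, 21.9 and 19.5 CPM in control-labelled ones. Its groups overlapped. On the log2 scale the difference was 0.18 (SE 0.10, edgeR adjusted p = 0.135), with a 95% interval of -0.04 to 0.39, which leaves room for a rise of up to 1.31-fold. With scaling by library size only, which moves the median of all genes by 0.12, Spry2 was called higher at 0.29 (adjusted p = 0.0173).

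Within libraries, the ratio of Spry1 to Spry2 counts was 0.190 ± 0.0108 in VprBP-labelled and 0.0369 ± 0.00102 in control-labelled libraries (SD, n = 3 each). The ratio of Spry4 to Spry2 was 0.119 ± 0.0129 and 0.243 ± 0.0410. The balance among the Sprouty transcripts thus shifted towards Spry1 and away from Spry4, and Spry1 counts exceeded Spry4 counts in the VprBP-labelled libraries alone. Spry3 has no row in the table.

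SPRED proteins bring neurofibromin, the product of Nf1, to the membrane, where it turns RAS off. Spred1 (ENSMUSG00000027351.14; chromosome 2, 117121374 to 117182279, plus strand) stood at 65.6, 69.8 and 68.0 CPM in VprBP-labelled libraries, against 36.3, 36.9 and 35.5 CPM in control-labelled ones. It rose by 0.90 on the log2 scale (SE 0.06, edgeR adjusted p = 4.55e-10), 1.87-fold, with the groups well apart. Spred2 (ENSMUSG00000045671.17; chromosome 11, 19924375 to 20024026, plus strand) stood at 27.8, 29.3 and 26.8 CPM in VprBP-labelled libraries, against 35.4, 34.7 and 40.5 CPM in control-labelled ones. It fell by 0.40 on the log2 scale (SE 0.08, edgeR adjusted p = 0.000359), 1.32-fold lower, the smallest called difference of the 10. Both genes had near-equal counts in control-labelled libraries. The ratio of Spred1 to Spred2 counts was 1.03, 1.06 and 0.875 there, against 2.36, 2.38 and 2.54 in VprBP-labelled libraries. Per kilobase of exon, Spred2 stood above Spred1 in control-labelled libraries (7.98 ± 0.692 and 5.34 ± 0.104 CPM per kilobase, SD, n = 3 each). The third relative, Spred3, was not called (43.1 ± 0.463 and 41.9 ± 1.26 CPM in VprBP-labelled and control-labelled libraries, edgeR adjusted p = 0.591). It was called higher by 0.16 with scaling by library size only. Nf1 was not called either (99.3 ± 4.90 and 104 ± 2.17 CPM, adjusted p = 0.246), and its sign turned with scaling by library size only.

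Of the PEA3 factors, both with more than trace counts rose. Etv5 (ENSMUSG00000013089.15; chromosome 16, 22381309 to 22439719, minus strand) stood at 12.2, 12.6 and 11.1 CPM in VprBP-labelled libraries, against 2.30, 2.79 and 2.98 CPM in control-labelled ones. On the log2 scale the difference was 2.16 (SE 0.18, edgeR adjusted p = 3.69e-09), 4.46-fold higher. Etv1 (ENSMUSG00000004151.17; chromosome 12, 38779380 to 38870484, plus strand) stood at 9.06, 9.78 and 10.6 CPM in VprBP-labelled libraries, against 2.39, 4.21 and 3.46 CPM in control-labelled ones. Neither gene's groups overlapped. The log2 difference of Etv1 was 1.56 (SE 0.20, edgeR adjusted p = 1.69e-06), 2.95-fold higher.

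Etv4 (ENSMUSG00000017724.14; chromosome 11, 101769742 to 101785371, minus strand) was near the limit of detection. It had 8, 13 and 15 counts in VprBP-labelled libraries and 1, 11 and 3 counts in control-labelled libraries. The groups overlapped because control-labelled library 2, at 0.681 CPM, lay within the VprBP-labelled range of 0.431 to 0.782 CPM. On the log2 scale the difference was 1.13 (SE 0.69, edgeR adjusted p = 0.148), with a 95% interval of -0.33 to 2.60. A difference of the size seen for Etv5 or Etv1 lies within that interval, so this depth does not settle it. Without control-labelled library 2 the difference was 2.49 and was called (adjusted p = 0.0183).

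**Figure D3:**
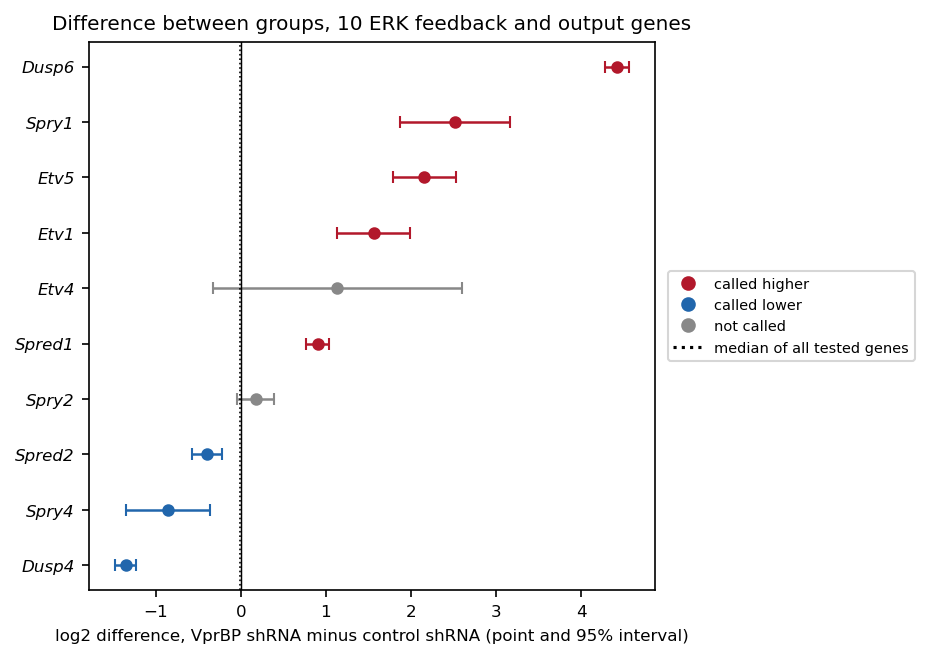
Log2 difference of each of the 10 genes, VprBP-labelled minus control-labelled, from edgeR with its 95% interval (horizontal axis). Red marks genes called higher, blue genes called lower and grey genes not called, and the dotted line is the median of all tested genes at -0.01. Differences run from 4.42 for Dusp6 to -1.35 for Dusp4.

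Dusp6 and most other tested phosphatases of its family differed in opposite directions. Of 11 DUSP genes on the lists, 10 were tested. In VprBP-labelled libraries 2 rose, 7 fell and 1 was not called, and Dusp9 had too few counts. Over all tested genes, 37.9% rose, 37.0% fell and 75.0% were called, and the counts of this family and of the lists that follow stand against those shares. All 4 inducible nuclear phosphatases fell. Besides Dusp4, Dusp1 was at 7.77 ± 1.04 and 29.6 ± 1.49 CPM in VprBP-labelled and control-labelled libraries (3.80-fold lower, edgeR adjusted p = 4.17e-11), Dusp5 at 0.569 ± 0.167 and 3.12 ± 0.639 CPM, and Dusp2 at 2.26 ± 0.137 and 5.14 ± 0.553 CPM (SD, n = 3 each). The 3 phosphatases that act mainly on JNK and p38 fell as well. Dusp8 was at 11.0 ± 0.515 and 93.8 ± 3.61 CPM (8.50-fold lower, edgeR adjusted p = 1.31e-16), Dusp10 was 3.04-fold lower and Dusp16 1.69-fold lower. Dusp7, the closest tested relative of Dusp6 and likewise selective for ERK, was not called (18.8 ± 1.41 and 16.7 ± 1.57 CPM, adjusted p = 0.151), though it was called higher by 0.29 with scaling by library size only. Dusp14, a small phosphatase outside this subfamily, rose 2.32-fold.

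**Figure D4:**
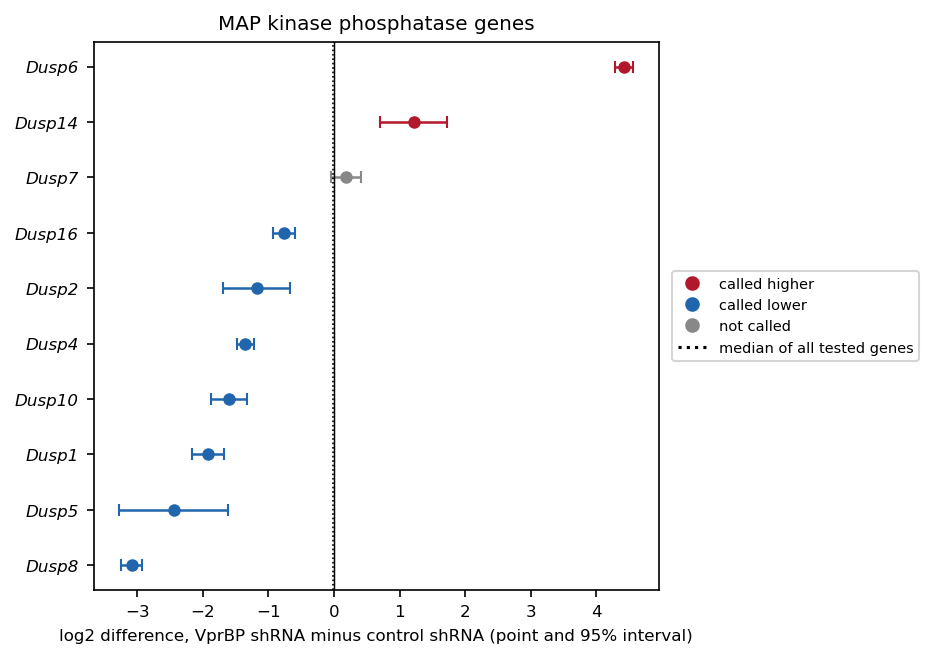
Log2 difference of the 10 tested DUSP genes, VprBP-labelled minus control-labelled, from edgeR with its 95% interval (horizontal axis), coloured by call as red for higher, blue for lower and grey for not called. Dusp6 and Dusp14 lie above 0, Dusp7 spans it, and the other 7 lie below 0, down to -3.09 for Dusp8.

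Among the remaining relatives, Il17rd, also called Sef and an inhibitor of ERK signalling, rose 1.38-fold (22.1 ± 2.19 and 15.9 ± 1.34 CPM in VprBP-labelled and control-labelled libraries, edgeR adjusted p = 0.000863). The ETS repressor Etv6 rose 2.24-fold and the ETS repressor Etv3 was 1.73-fold lower. Over the 12 tested relatives outside the 10 genes, 3 were higher, 7 lower and 2 not called, with a median log2 difference of -0.78.

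Other transcripts known to follow ERK activity also moved in both directions. Of 18 tested, 6 were higher (33.3%, against 37.9% of all tested genes), 10 lower (55.6%, against 37.0%) and 2 not called, with a median log2 difference of -0.72. Phlda1, a stress and growth factor response gene, was at 207 ± 6.58 and 826 ± 15.0 CPM in VprBP-labelled and control-labelled libraries (SD, n = 3 each; 4.0-fold lower, edgeR adjusted p = 1.7e-17). Myc, the growth-promoting transcription factor, was 3.64-fold lower, the stress-induced kinase Plk3 10.5-fold, the urokinase receptor Plaur 3.80-fold, and the ephrin receptors Epha2 and Epha4 2.73-fold and 2.06-fold. Against these, Ccnd1, the cyclin that drives entry into the cell cycle, was at 82.4 ± 1.91 and 18.7 ± 0.855 CPM (4.42-fold higher), and the cytokine Lif was 6.36-fold higher. Fos, an immediate-early factor, rose 1.70-fold, and Egr1, another, was not called (2.83 ± 0.453 and 3.45 ± 0.848 CPM, adjusted p = 0.355).

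**Figure D5:**
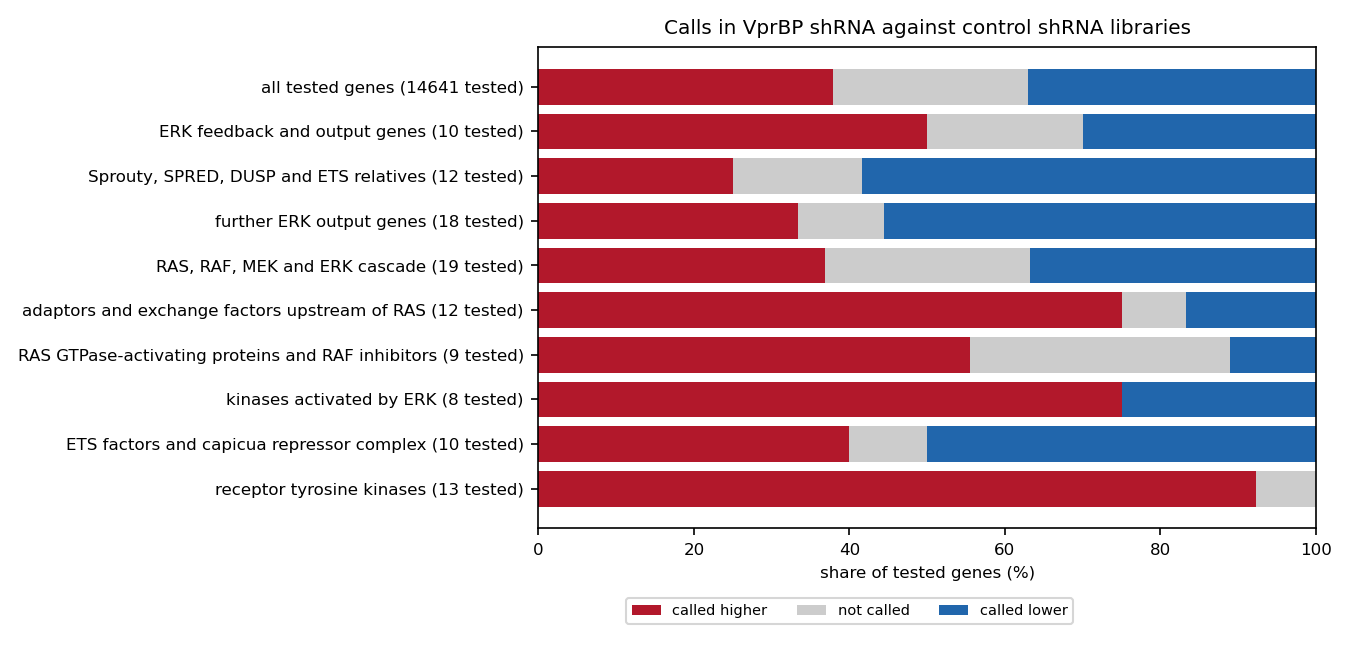
Share of tested genes called higher (red), not called (grey) and called lower (blue) in VprBP-labelled against control-labelled libraries, for all tested genes and for each pathway list (horizontal axis, in percent). Of the 13 tested genes on the receptor tyrosine kinase list, Fgfrl1 among them, 92.3% are called higher, against 37.9% of all tested genes. Epha2 and Epha4, also receptor tyrosine kinases and called lower, are counted with the further ERK output genes.

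The cascade above these genes was uneven by tier. Of 19 tested RAS, RAF, MEK and ERK cascade genes, 7 were higher, 7 lower and 5 not called (median log2 difference -0.06). The 73.7% called is close to the 75.0% of all tested genes. Mapk3, which encodes ERK1, rose 2.91-fold (128 ± 5.05 and 44.0 ± 3.38 CPM in VprBP-labelled and control-labelled libraries, SD, n = 3 each, edgeR adjusted p = 1.78e-13), and Map2k1, which encodes MEK1, 1.75-fold. Map2k2, which encodes MEK2, rose 1.15-fold. The scaffold Ksr1 rose 2.22-fold. Araf was 2.09-fold lower and Braf 1.2-fold lower. Of the RAS genes, Hras was 1.56-fold and Nras 1.4-fold lower. Lamtor3, a scaffold for MEK1 and ERK1 on endosomes, was 2.5-fold lower, and Pea15a, which holds ERK in the cytoplasm, 1.72-fold lower.

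Receptor tyrosine kinases and the adaptors, exchange factors and regulators between them and RAS were mostly higher. The receptor tyrosine kinase list has 13 tested genes. Of these, 12 rose (92.3%, against 37.9% of all tested genes), none fell and 1 was not called. Their median log2 difference was 1.51. The list leaves out Epha2 and Epha4, receptor tyrosine kinases counted above with other ERK output transcripts. Both were lower, 2.73-fold and 2.06-fold. Met, the receptor for hepatocyte growth factor, stood at 1193 ± 33.9 and 419 ± 15.8 CPM in VprBP-labelled and control-labelled libraries (SD, n = 3 each; 2.85-fold higher, edgeR adjusted p = 6.5e-16). The fibroblast growth factor receptor Fgfr1 stood at 38.3 ± 3.96 and 2.31 ± 0.177 CPM (16.6-fold higher), Erbb3 was 4.03-fold higher, Axl 3.21-fold and Pdgfra 4.38-fold. Fgfrl1, a relative of the fibroblast growth factor receptors without a kinase domain, rose 4.48-fold and is counted among the 12. Fgfr4, Kit and Ret had too few counts to be tested. Of 12 adaptors, exchange factors and regulators, 9 rose (75.0%, against 37.9% of all tested genes), 2 fell (Frs2 and Cblb) and Sos2 was not called, with a median of 0.38. The list includes Cbl, which rose, and Cblb, ubiquitin ligases that turn receptors off. Gab1, a docking protein below many receptors, rose 1.91-fold and Rasgrp3, an exchange factor for RAS, 1.73-fold.

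Of 9 tested inhibitors of RAS and RAF, 5 rose, 1 fell and 3 were not called, with a median log2 difference of 0.31. The share called, 66.7%, is below the 75.0% of all tested genes. Dab2ip, which speeds the turning off of RAS, rose 4.47-fold (90.4 ± 4.61 and 20.2 ± 0.538 CPM in VprBP-labelled and control-labelled libraries, SD, n = 3 each, edgeR adjusted p = 6.01e-15). Rasa3, of the same activity, rose 3.46-fold, and Pebp1, an inhibitor of RAF signalling, 1.4-fold. The 1 that fell, Rasal2, was 1.21-fold lower and lost its call in 6 of 16 alternatives, for example with scaling by library size only (adjusted p = 0.184).

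All 8 kinases that ERK activates were called, where 75.0% of all tested genes were, so a full count in so short a list is not far from the background. The 4 RSK genes and both MSK genes rose, with Rps6ka5 (MSK1) at 16.3 ± 1.47 and 3.10 ± 0.475 CPM in VprBP-labelled and control-labelled libraries (SD, n = 3 each; 5.29-fold higher, edgeR adjusted p = 2.35e-10) and Rps6ka3 (RSK2) 2.47-fold higher. Both MNK genes fell, Mknk2 1.41-fold and Mknk1 1.17-fold. Mknk1 lost its call with scaling by library size only (adjusted p = 0.23), without VprBP-labelled library 1 (adjusted p = 0.0647) and without control-labelled library 2 (adjusted p = 0.0568).

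Capicua itself, Cic, rose 1.43-fold (142 ± 11.1 and 99.5 ± 4.05 CPM in VprBP-labelled and control-labelled libraries, SD, n = 3 each, edgeR adjusted p = 3.38e-07). Its partner Atxn1 rose 1.31-fold. The other partner, Atxn1l, was 1.17-fold lower, a call lost with scaling by library size only (adjusted p = 0.196) and without control-labelled library 2 (adjusted p = 0.0616). Of the genes with octamer matches shown above, Spry2 differed by 0.18 on the log2 scale. Dusp6, matched only by the forms added after the sequences were seen, differed by 4.42. Among ETS factors outside the PEA3 group, Ets1 was at 327 ± 9.43 and 99.3 ± 4.36 CPM (3.29-fold higher, edgeR adjusted p = 1.03e-15) and Elk3 6.05-fold higher, whereas Ets2 was 2.07-fold lower, Elk4 1.68-fold and Gabpa 1.4-fold. Of the 10 tested genes of this list, 4 rose, 5 fell and 1 was not called, 90.0% called against 75.0% of all tested genes.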

How the data were processed

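Messenger RNA of 6 libraries was measured, 3 labelled VprBP shRNA and 3 labelled control shRNA, in libraries made with a SMARTer kit per the labels' protocols. The authors deposited estimated counts per gene, not scaled between libraries. Partek and mm10 are named in the submitters' processing notes. For aligner, strand setting and annotation, the choice is not given in the sources used here. In each library 62.1% to 64.5% of values were whole within 0.001. Reads shared among similar or overlapping genes are uncertain. No gene in the table totals under 10 counts.

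Estimated counts as deposited were first rounded. Tests used edgeR 4.0.16 under R 4.3.3 (filterByExpr, TMM, quasi-likelihood F test, group only), with Benjamini-Hochberg adjustment over 14641 genes. Fitted folds need not equal ratios of means. SEs are the log2 difference over the root of F. A count of 0 allows up to 0.144 to 0.186 CPM (3 counts, counting error only). The script was tested on simulated data. Gene models came from GENCODE M21, which 18501 of 18908 IDs matched.

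Alternatives are DESeq2 1.42.0 (size factors and test), limma 3.58.1 voom, library size only, upper quartile scaling, scaling without mitochondrial genes, other filters, no rounding, a replicate block and leaving out each library. Replicate numbers did not pair libraries (correlations -0.06, 0.01 and -0.05). Named genes are the 10, Dcaf1, up to 6 per other list by smallest p, and genes needed for a direction or contrast. The genes and lists were chosen with earlier results of these data known. Some genes of the lists are counted but not reported here by name.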

Additional observations from a re-analysis of the deposited data

How the results depend on the processing

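The 5 genes called higher and 3 called lower among the 10 kept both counts under 14 of 16 alternatives. A sixth was called higher with scaling by library size only (Spry2, 0.29) and without control-labelled library 2 (Etv4, 2.49). All 8 called genes held direction and call under all 16. Dusp6 ranged from 4.37 to 4.54 and Dusp4 from -1.41 to -1.24 on the log2 scale. Dcaf1 was not called with scaling by library size only (-0.12). Over all genes, 5304 to 6160 were called higher and 4719 to 5696 lower. Among uncalled genes, the sign of Nf1 turned with scaling by library size only (0.046), and Rasa1 ranged from -0.034 to 0.10 with 1 library left out. With scaling by library size only, 5 rather than 3 relatives were called higher. Across the 16 alternatives, 7 to 10 adaptors, exchange factors and regulators were called higher and 2 lower. Of the RAS, RAF, MEK and ERK cascade genes, 5 to 8 were called higher and 6 to 7 lower. Causes were not tested.

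With a replicate block the same numbers of the 10 genes were called, 5 higher and 3 lower, against 5395 and 5254 over all genes, and Dcaf1 differed by -0.24. The numbers did not pair libraries. Etv4, with 51 counts in all, could not be fitted with the filter of 1 CPM in 3 libraries. Where a library is left out, the group of 2 is assumed to vary like the other. Depth limits Etv4, Spry1 and Spry4, with 51, 287 and 418 counts over the 6 libraries.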
